A study of Homo sapiens with 9 samples.

Results

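The genes described here are those that build cholesterol and fatty acids, together with the factors that switch them on. The list named 31 genes, and a gene entered when an array row carried its symbol, with the row of highest mean signal taken where a gene had several. This gave 28 genes with 1 row each, out of 17687 named genes and 21448 transcript clusters (the array's probe groups for one gene) in the tables. FDFT1, FADS1 and ACSL3 were not analysed here. The list follows the steps of these pathways.

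The arrays were Clariom S whole-transcript expression arrays of ACC-MESO-1, a human malignant pleural mesothelioma cell line grown in RPMI-1640 with 10% fetal bovine serum. Cells carried a control shRNA or 1 of 2 short hairpin RNAs against LSD1, a histone demethylase. Replicates 1 to 3 are the control, 4 to 6 had shLSD1 #1, and the last group, 7 to 9, had shLSD1 #2. The study asked how the transcriptome changes when LSD1 is suppressed, and here each hairpin was set against the control and against the other hairpin. All 3 groups were infected cells of 1 line in serum, which itself supplies cholesterol and fatty acids. The labels give neither the time after infection nor whether replicates were separate cultures, so the p-values measure the spread between these arrays, which may be technical. The LSD1 transcript was not analysed here, so the depth of the knock-down has no check in these values.

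Cholesterol is built from acetyl-CoA through mevalonate and farnesyl diphosphate to squalene, which is closed into lanosterol and then trimmed to cholesterol. Fatty acids are built from the same acetyl-CoA by acetyl-CoA carboxylase and fatty acid synthase, then lengthened and desaturated. Both pathways are driven by the SREBP transcription factors. When membrane sterol is low, SCAP escorts the SREBP precursors from the endoplasmic reticulum to the Golgi, where they are cleaved and released to the nucleus, and when sterol is high INSIG proteins hold SCAP back. SREBP-2 acts mainly on cholesterol genes and SREBP-1c mainly on fatty acid genes, and nearly every gene on the list is a known SREBP target in some cell type.

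The arrays were alike in their medians (6.39 to 6.43 log2 units) and in the share of clusters above the negative control probes (42.0% to 46.2%). Of the 28 genes, 27 lay above the 95th percentile of 612 negative control probes on all 9 arrays. The exception was TM7SF2, which was above it on 1 control array and on all arrays of both hairpins. Of 10 mesothelial markers 6 passed this level on at least 1 array, with mesothelin (MSLN) and keratin 7 (KRT7) above it on all 9 and calretinin (CALB2) and keratin 5 (KRT5) on none. Markers of adipocytes and hepatocytes, cell types with very active lipid synthesis, were above it on no array (0 of 4 for each), nor were endothelial markers (0 of 4), and 1 of 5 leukocyte markers was above it on some array. The arrays did stand apart in one technical measure. The mean signal of the hybridization spike-ins was 11.2 to 11.4 log2 units on the control arrays and replicates 7 and 9, and 10.8 to 10.9 on all shLSD1 #1 arrays and replicate 8. Group and spike-in signal therefore moved together for shLSD1 #1, and the total counts of called genes are also given with this difference in the fit.

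LSD1 hairpins were accompanied by a mixed response of these genes, with more lower than higher. FADS2, FDPS, SREBF1, HMGCS1, FASN, MSMO1 and SREBF2 fell with both hairpins, and PMVK, HSD17B7 and ELOVL6 rose with both. With shLSD1 #1, 12 of 28 genes passed an adjusted p of 0.05 (limma, Benjamini-Hochberg over all clusters), 9 lower and 3 higher. This is 42.9% of the genes, against 15.8% of all clusters (7.94% lower, 7.85% higher) and 28.5% of clusters whose mean signal exceeded the negative controls. The genes and lists were chosen with earlier results of these data known, so these shares describe them and test nothing. With shLSD1 #2, 11 passed, 7 lower and 4 higher, or 39.3% against 13.2% of all clusters (6.63% lower, 6.56% higher) and 24.1% of those above the negative controls. The 10 genes named above passed with both hairpins in the same direction, which held for 10.4% of all clusters (5.32% lower, 5.11% higher) and 20% of those above the negative controls. The contrasts share the control arrays. With a block for the spike-in class, 0 genes passed with shLSD1 #1, 9 with shLSD1 #2 and 0 with both. The share of all clusters called under the block is not given here, so whether the loss is particular to these genes was not tested. The median log2 change of the 28 genes was −0.24 with shLSD1 #1 and −0.15 with shLSD1 #2, beside 0.03 and 0.02 over all clusters, and −0.11 with shLSD1 #1 under the block. Changes ranged from −1.14 to 0.73 with shLSD1 #1 and from −1.09 to 0.94 with shLSD1 #2, the largest being 2.2-fold. Another 15 genes passed with neither hairpin, and standard errors over the 28 genes were 0.10 to 0.25 log2 units.

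**Figure D1:**
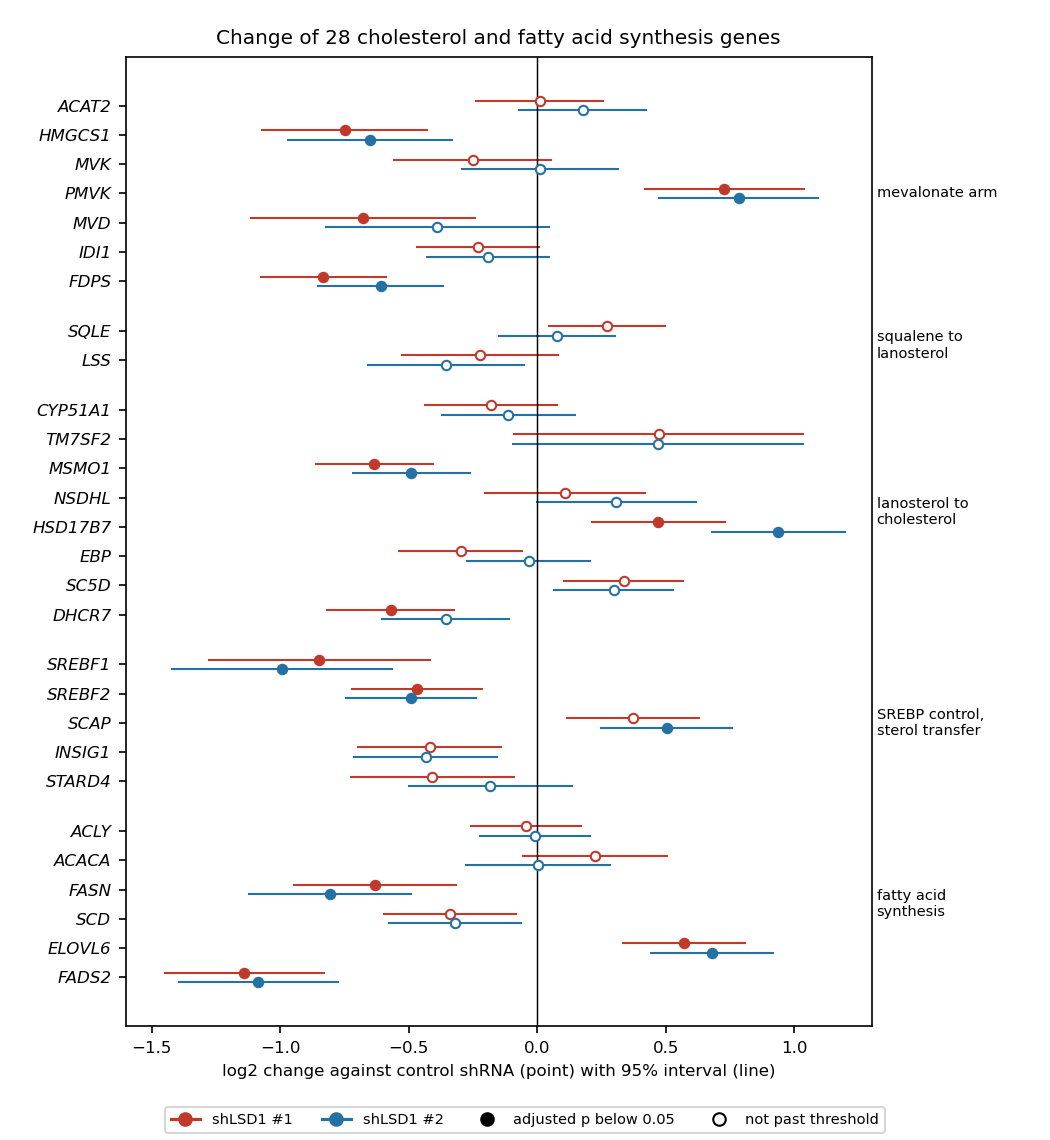
Log2 change of each of the 28 genes against the control shRNA (points) with its 95% interval (lines), in pathway order, for shLSD1 #1 and shLSD1 #2; filled points passed an adjusted p of 0.05. Filled points lie on both sides of 0 within the same pathway step, from −1.14 for FADS2 to 0.94 for HSD17B7.

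Separation of the groups was more frequent than the calls. With shLSD1 #1 all 3 hairpin arrays lay below all 3 control arrays for 15 genes and above them for 7, beside 16.8% and 18.2% of all clusters (35% in either direction). With shLSD1 #2 they lay below for 12 and above for 8, beside 15.3% and 16.8% (32.1% in either direction). With the 6 hairpin arrays pooled, 15 genes passed (10 lower, 5 higher), beside 18.2% of all clusters (8.98% lower, 9.25% higher), and 5 passed with the spike-in block. This added INSIG1 (−0.43, adjusted p = 0.0234), SC5D (0.32, adjusted p = 0.0389) and SCD (−0.33, adjusted p = 0.049), none of which passed with a single hairpin, while MVD no longer passed (adjusted p = 0.0564).

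Since the genes share a set of regulators, the promoters of the genes that moved are shown with the sites those regulators are known to use. Of the 31 listed genes 27 have an entry in the RefSeq promoter table (GRCh38.p14), which holds 250 bases before to 50 after each start. ACAT2, FDFT1, SQLE and FASN have none. The 27 include FADS1 and ACSL3, whose array signal was not analysed here. Printed here are the 250 bases before the start of SREBF2 (chr22:41832855-41833104, plus strand), FDPS (chr1:155308616-155308865, plus strand), MSMO1 (chr4:165327419-165327668, plus strand) and HMGCS1 (chr5:43313413-43313662, minus strand, the more upstream of its starts), which fell with both hairpins, and of HSD17B7 (chr1:162790452-162790701, plus strand) and PMVK (chr1:154936720-154936969, minus strand), which rose with both. Capitals mark a sterol regulatory element (TCACNCCAC, the form bound by SREBPs) or a CCAAT box (CCAAT, bound by NF-Y, a usual partner of SREBPs), read on both strands, so that ATTGG is a CCAAT box on the opposite strand.
SREBF2: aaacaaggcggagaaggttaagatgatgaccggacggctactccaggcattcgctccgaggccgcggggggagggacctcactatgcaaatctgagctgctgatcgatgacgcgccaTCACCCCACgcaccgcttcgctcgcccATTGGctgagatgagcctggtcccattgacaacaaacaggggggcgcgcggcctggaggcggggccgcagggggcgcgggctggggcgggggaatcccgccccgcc
FDPS: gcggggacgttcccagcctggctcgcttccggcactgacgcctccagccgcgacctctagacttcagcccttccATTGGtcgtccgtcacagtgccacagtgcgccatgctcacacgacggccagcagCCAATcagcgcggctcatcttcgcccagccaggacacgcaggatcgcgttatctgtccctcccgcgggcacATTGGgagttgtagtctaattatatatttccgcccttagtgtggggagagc
MSMO1: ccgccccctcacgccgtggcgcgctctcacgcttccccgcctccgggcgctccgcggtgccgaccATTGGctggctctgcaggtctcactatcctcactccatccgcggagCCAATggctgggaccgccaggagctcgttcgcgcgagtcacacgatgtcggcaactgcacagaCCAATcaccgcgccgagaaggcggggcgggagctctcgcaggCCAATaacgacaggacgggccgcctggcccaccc
HMGCS1: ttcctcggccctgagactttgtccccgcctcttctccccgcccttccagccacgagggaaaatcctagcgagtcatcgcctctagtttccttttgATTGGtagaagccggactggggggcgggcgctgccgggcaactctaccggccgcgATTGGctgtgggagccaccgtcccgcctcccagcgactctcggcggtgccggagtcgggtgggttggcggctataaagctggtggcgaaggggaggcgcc
HSD17B7: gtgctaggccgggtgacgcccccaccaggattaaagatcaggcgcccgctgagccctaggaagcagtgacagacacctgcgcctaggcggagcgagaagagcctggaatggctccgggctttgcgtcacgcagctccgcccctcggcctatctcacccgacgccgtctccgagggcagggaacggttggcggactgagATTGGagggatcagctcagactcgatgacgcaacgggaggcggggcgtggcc
PMVK: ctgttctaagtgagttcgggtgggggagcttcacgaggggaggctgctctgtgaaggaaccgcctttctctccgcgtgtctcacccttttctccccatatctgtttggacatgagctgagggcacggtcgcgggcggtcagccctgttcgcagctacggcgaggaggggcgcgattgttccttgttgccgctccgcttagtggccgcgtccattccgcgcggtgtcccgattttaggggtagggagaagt
SREBF2, whose product activates its own gene, carries the only match to the sterol regulatory element, TCACCCCAC on the plus strand, ahead of a CCAAT box on the minus strand.

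Over the whole 300 bases, a CCAAT box stood in 21 of the 27 genes (77.8%), beside 39.7% of all genes with an entry and 44.5% of those with signal above the negative controls on these arrays. A GC box (GGGCGG, the site of Sp1, another partner of SREBPs) stood in 26 of 27 (96.3%), beside 48.3% and 78.3%. The sterol regulatory element stood in 1 of 27 (3.70%), beside 1.39% and 1.51%, and the palindromic E-box CACGTG in 4 of 27 (14.8%), beside 8.77% and 13.1%. No match of one motif overlapped a match of another in these promoters. By direction of change, the CCAAT box stood in 5 of the 6 genes with an entry that were lower with both hairpins. FASN, also lower with both, has no entry. The box stood in 1 of 3 genes higher with both and in 14 of the 16 other measured genes with an entry, counts too small to compare. FADS1 and ACSL3 do not enter these counts by direction. Among genes lower with both, FDPS and MSMO1 carry 3 and 4 copies, SREBF2 carries 1 and SREBF1 none. HMGCS1 carries 2 and FADS2 carries 1, each at 1 of its 2 starts and none at the other. Among genes higher with both, HSD17B7 carries 2, and PMVK and ELOVL6 none. SREBF1, FADS2 and ELOVL6 are not among the printed sequences. A match describes the letters only, and its absence from this window says nothing about SREBP binding.

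In the mevalonate arm, HMGCS1 and FDPS fell and PMVK rose with both hairpins, and MVD fell with shLSD1 #1 alone. HMGCS1, the synthase that commits acetyl units to the pathway, had log2 signals of 12.85, 12.53 and 12.89 on the control arrays, 11.94, 12.09 and 11.98 with shLSD1 #1, and 12.24, 12.19 and 11.88 with shLSD1 #2. Every hairpin array lay below every control array. HMGCS1 was 1.68-fold lower with shLSD1 #1 (log2 change −0.75 ± 0.14 SE, n = 3 against 3, limma adjusted p = 0.0069) and 1.57-fold lower with shLSD1 #2 (−0.65 ± 0.14, adjusted p = 0.0161). FDPS, which makes farnesyl diphosphate, the branch point to sterols, dolichol, ubiquinone and prenylated proteins, read 14.33, 14.31 and 14.36 in the control, 13.47, 13.65 and 13.39 with shLSD1 #1, and 13.65, 13.74 and 13.79 with shLSD1 #2. The groups did not overlap, and the control arrays lay within 0.1 log2 units of each other. FDPS was 1.78-fold lower with shLSD1 #1 (−0.83 ± 0.11, adjusted p = 0.000961) and 1.53-fold lower with shLSD1 #2 (−0.61 ± 0.11, adjusted p = 0.0058). The RefSeq table lists 10 pseudogenes named for FDPS, 3 for IDI1, 3 for CYP51A1 and 1 for SCD, and whether the probes also read their RNA was not tested.

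PMVK, phosphomevalonate kinase, went the other way. It read 9.66, 9.48 and 9.35 in the control, 10.29, 10.12 and 10.26 with shLSD1 #1, and 10.21, 10.12 and 10.51 with shLSD1 #2. All hairpin arrays were above all control arrays, by 1.66-fold with shLSD1 #1 (0.73 ± 0.14, adjusted p = 0.00692) and 1.72-fold with shLSD1 #2 (0.78 ± 0.14, adjusted p = 0.00541). MVD, the decarboxylase that follows PMVK in the pathway, read 9.18, 8.71 and 8.92 in the control and 8.23, 8.28 and 8.27 with shLSD1 #1, 1.6-fold lower (−0.68 ± 0.20, adjusted p = 0.0435). With shLSD1 #2 it read 8.60, 8.13 and 8.91 and overlapped the control (−0.39, adjusted p = 0.252). The call for MVD ended when any of replicates 1, 3, 4, 5, 6 or 7 was left out (adjusted p 0.0636 to 0.138), and that of HMGCS1 with shLSD1 #2 without replicate 1, 3 or 9 (0.0502 to 0.0618). The 3 other enzymes of the arm did not pass: ACAT2, acetyl-CoA acetyltransferase, which overlaps TCP1 on the opposite strand, differed by 0.01 and 0.18 log2 units with shLSD1 #1 and #2, mevalonate kinase MVK by −0.25 and 0.01, and isopentenyl diphosphate isomerase IDI1 by −0.23 and −0.19. In all, 1 of 7 rose and 3 fell with shLSD1 #1, and 1 rose and 2 fell with shLSD1 #2, with list medians of −0.25 and −0.19. That is 57.1% and 42.9% called, beside 15.8% and 13.2% of all clusters and 28.5% and 24.1% of those above the negative controls.

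Neither measured enzyme between squalene and lanosterol passed the test. SQLE, the squalene epoxidase and a second control point of the pathway, read 11.48, 11.50 and 11.48 in the control, 11.70, 11.71 and 11.85 with shLSD1 #1, and 11.63, 11.52 and 11.54 with shLSD1 #2. All hairpin arrays lay above the control, but the differences were 0.27 (adjusted p = 0.108) and 0.08 log2 units (adjusted p = 0.705). LSS, which closes the sterol rings, differed by −0.22 and −0.36 (adjusted p = 0.326 and 0.133).

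Between lanosterol and cholesterol, MSMO1 fell and HSD17B7 rose with both hairpins, and DHCR7 fell with shLSD1 #1. MSMO1, the C4-methylsterol oxidase, read 16.26, 16.11 and 16.26 in the control, 15.64, 15.53 and 15.56 with shLSD1 #1, and 15.77, 15.69 and 15.70 with shLSD1 #2. Its groups did not overlap, and it was 1.55-fold lower with shLSD1 #1 (−0.63 ± 0.10, adjusted p = 0.00295) and 1.4-fold lower with shLSD1 #2 (−0.49 ± 0.10, adjusted p = 0.0126). HSD17B7, the 3-ketosteroid reductase, read 10.44, 10.64 and 10.74 in the control, 11.03, 11.12 and 11.08 with shLSD1 #1, and 11.45, 11.55 and 11.64 with shLSD1 #2. These 3 groups formed 3 separate levels. HSD17B7 was 1.39-fold higher with shLSD1 #1 (0.47 ± 0.12, adjusted p = 0.0238) and 1.92-fold higher with shLSD1 #2 (0.94 ± 0.12, adjusted p = 0.000737). MSMO1 and HSD17B7 act in the same removal of the C4 methyl groups, as does NSDHL, which differed by 0.11 and 0.31 (adjusted p = 0.665 and 0.202). The call for HSD17B7 with shLSD1 #1 ended without any of replicates 1, 2, 4, 5 or 6 (adjusted p 0.0527 to 0.0847), and RefSeq lists 2 pseudogenes named for it.

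DHCR7, which makes cholesterol from 7-dehydrocholesterol, read 13.72, 13.81 and 13.74 in the control, 13.07, 13.33 and 13.17 with shLSD1 #1, and 13.35, 13.37 and 13.49 with shLSD1 #2. Hairpin arrays were below control arrays throughout. It fell with shLSD1 #1 (−0.57 ± 0.11, adjusted p = 0.00747), and its difference with shLSD1 #2 was −0.36 ± 0.11 (adjusted p = 0.0672). SC5D, the sterol desaturase before DHCR7, read 9.13, 9.06 and 9.17 in the control, 9.39, 9.47 and 9.50 with shLSD1 #1 and 9.30, 9.49 and 9.44 with shLSD1 #2. It lay above the control on every hairpin array and passed only when the hairpins were pooled. The remaining enzymes did not pass: CYP51A1, the lanosterol demethylase, differed by −0.18 and −0.11, the isomerase EBP by −0.30 and −0.03, and the C14 reductase TM7SF2 by 0.47 and 0.47 with the widest error of the 28 genes (SE 0.25). Of these 8 enzymes 1 rose and 2 fell with shLSD1 #1, and 1 rose and 1 fell with shLSD1 #2. That is 37.5% and 25% called, beside 15.8% and 13.2% of all clusters and 28.5% and 24.1% of those above the negative controls.

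**Figure D2:**
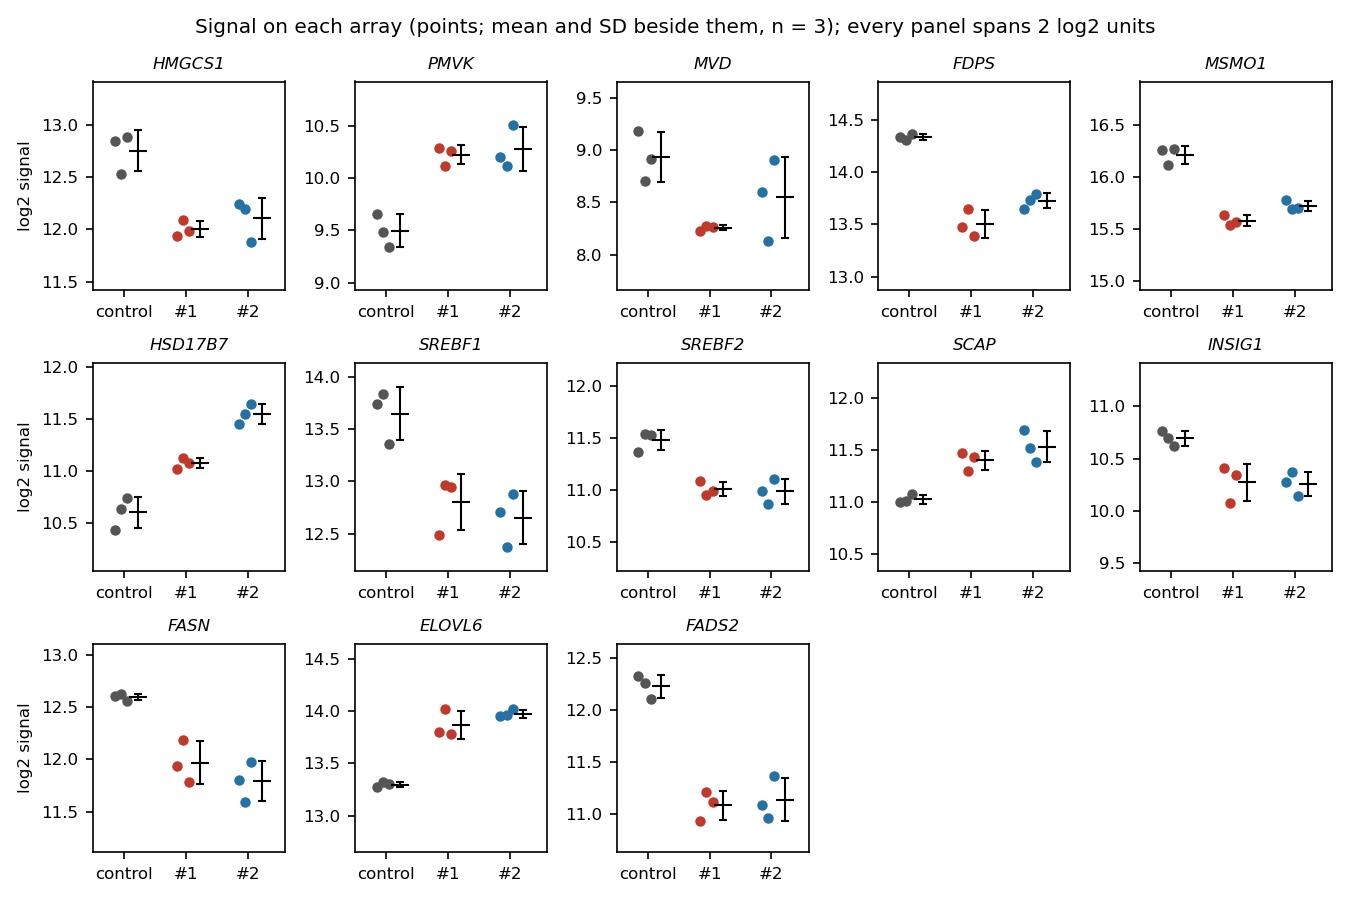
Log2 signal on each array (points) with mean and SD (bars, n = 3) for 13 genes, in control shRNA, shLSD1 #1 and shLSD1 #2; every panel spans 2 log2 units. Hairpin and control points do not overlap except for MVD with shLSD1 #2, and HSD17B7 shows 3 separate levels.

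Among the factors that control the pathway, both SREBP genes fell with both hairpins, while SCAP, the escort protein, was higher. SREBF1, which encodes SREBP-1a and SREBP-1c (the cluster does not separate them), read 13.74, 13.84 and 13.36 in the control, 12.49, 12.96 and 12.94 with shLSD1 #1, and 12.70, 12.38 and 12.88 with shLSD1 #2. SREBF2, which encodes SREBP-2, read 11.36, 11.54 and 11.53 in the control, 11.09, 10.95 and 10.99 with shLSD1 #1, and 10.99, 10.86 and 11.11 with shLSD1 #2. No hairpin array reached the lowest control array for either gene. SREBF1 was 1.8-fold lower with shLSD1 #1 (−0.85 ± 0.19, adjusted p = 0.0156) and 1.99-fold lower with shLSD1 #2 (−0.99 ± 0.19, adjusted p = 0.00832). SREBF2 was 1.38-fold lower (−0.47 ± 0.11, adjusted p = 0.0216) and 1.41-fold lower (−0.49 ± 0.11, adjusted p = 0.0198). The SREBF1 call with shLSD1 #1 ended without replicate 1, 2 or 4 (adjusted p 0.0556 to 0.0611). The SREBF2 call ended with shLSD1 #1 without replicate 2, 3, 5 or 6 (0.0583 to 0.0752) and with shLSD1 #2 without replicate 2, 3, 7 or 8 (0.059 to 0.0728).

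SCAP read 11.00, 11.01 and 11.08 in the control, 11.47, 11.30 and 11.43 with shLSD1 #1, and 11.69, 11.52 and 11.39 with shLSD1 #2. Every hairpin array was above every control array, and SCAP rose with shLSD1 #2 (1.42-fold, 0.50 ± 0.12, adjusted p = 0.0193). With shLSD1 #1 the difference was 0.37 ± 0.12 (adjusted p = 0.0584), and the shLSD1 #2 call ended without replicate 1, 2, 7 or 8 (0.0532 to 0.0731). INSIG1, which retains SCAP and is itself an SREBP target, read 10.76, 10.70 and 10.62 in the control, 10.41, 10.07 and 10.34 with shLSD1 #1, and 10.27, 10.37 and 10.14 with shLSD1 #2. The groups did not overlap, and the differences were −0.42 ± 0.13 (adjusted p = 0.0513) and −0.43 ± 0.13 (adjusted p = 0.0509), just outside the threshold with each hairpin alone. STARD4, a sterol carrier protein, differed by −0.41 and −0.18 (adjusted p = 0.0873 and 0.488). The median over these 5 genes was −0.42 with shLSD1 #1 and −0.43 with shLSD1 #2.

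In fatty acid synthesis, FASN and FADS2 fell and ELOVL6 rose with both hairpins, while ACLY, ACACA and SCD passed with neither. FASN, fatty acid synthase, read 12.61, 12.63 and 12.56 in the control, 11.94, 12.19 and 11.78 with shLSD1 #1, and 11.81, 11.59 and 11.98 with shLSD1 #2. The hairpin arrays were all below the control arrays, by 1.55-fold (−0.63 ± 0.14, adjusted p = 0.015) and 1.75-fold (−0.80 ± 0.14, adjusted p = 0.00513); the shLSD1 #1 call ended without replicate 2 or 6 (0.0508 and 0.0543). FADS2, the delta-6 desaturase of polyunsaturated fatty acids, read 12.32, 12.26 and 12.10 in the control, 10.94, 11.21 and 11.12 with shLSD1 #1, and 11.09, 10.96 and 11.37 with shLSD1 #2. Its hairpin and control arrays were far apart, and its fall was the largest of the 28 genes: 2.2-fold with shLSD1 #1 (−1.14 ± 0.14, adjusted p = 0.000608) and 2.12-fold with shLSD1 #2 (−1.09 ± 0.14, adjusted p = 0.000835). ELOVL6, which lengthens palmitate, the product of FASN, to stearate, read 13.28, 13.32 and 13.30 in the control, 13.80, 14.02 and 13.78 with shLSD1 #1, and 13.95, 13.96 and 14.02 with shLSD1 #2. All hairpin arrays were above the control, by 1.49-fold (0.57 ± 0.11, adjusted p = 0.00627) and 1.6-fold (0.68 ± 0.11, adjusted p = 0.0029).

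SCD, which puts the double bond into stearate, read 16.25, 16.05 and 16.16 in the control, 15.77, 15.99 and 15.70 with shLSD1 #1, and 15.84, 15.85 and 15.80 with shLSD1 #2. It lay below the control on every hairpin array, with differences of −0.34 and −0.32 that did not pass singly (adjusted p = 0.0814 and 0.11). ACLY, which makes cytosolic acetyl-CoA from citrate, differed by −0.04 (95% interval −0.26 to 0.18) and −0.01 (−0.23 to 0.21). ACACA, acetyl-CoA carboxylase, differed by 0.22 (adjusted p = 0.281) and by less than 0.01. Of the 6 fatty acid genes 1 rose and 2 fell with each hairpin, with medians of −0.19 and −0.17. That is 50% called with each, beside 15.8% and 13.2% of all clusters and 28.5% and 24.1% of those above the negative controls.

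No difference between the hairpins passed the test at any of the 28 genes, nor at any of the 21448 clusters (limma, 0% called). Among the 28 genes the smallest adjusted p was 0.479, and 2 had an unadjusted p under 0.05. HSD17B7 was lower with shLSD1 #1 than with shLSD1 #2 by −0.47 log2 units (95% interval −0.73 to −0.20, unadjusted p = 0.00282), and EBP by −0.26 (unadjusted p = 0.0361). The 95% intervals of all 28 differences lay within 1 log2 unit of 0, and those of 19 within 0.5. Thus MVD, DHCR7 and SCAP, which passed with 1 hairpin alone, are not shown to differ between hairpins: their differences were −0.29, −0.21 and −0.13. FADS2 (−0.05), SREBF2 (0.02) and INSIG1 (0.01) had nearly the same change with both.

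**Figure D3:**
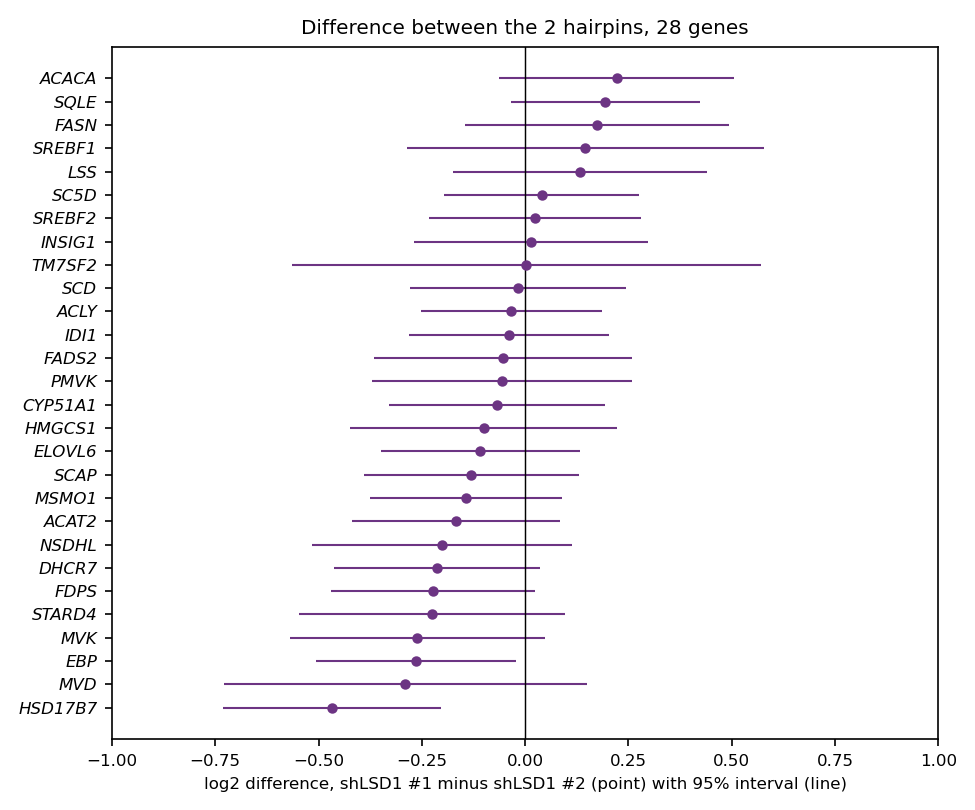
Difference in log2 signal, shLSD1 #1 minus shLSD1 #2, for the 28 genes (points) with 95% intervals (lines), ordered by size. All intervals lie within 1 log2 unit of 0, and HSD17B7 at −0.47 lies farthest from it.

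With the arrays' spike-in class entered as a block, no call with shLSD1 #1 was left among the 28 genes. All 12 changes kept their sign, their median size went from 0.66 to 0.55 log2 units, their median standard error from 0.13 to 0.23, and their adjusted p lay between 0.0925 and 0.952. PMVK (0.97), HMGCS1 (−0.88), FADS2 (−0.87), FDPS (−0.85), ELOVL6 (0.60), MSMO1 (−0.58), DHCR7 (−0.52) and HSD17B7 (0.47) stayed within 1.5 times their size. MVD (−0.06), SREBF2 (−0.29), FASN (−0.33) and SREBF1 (−0.43) moved by more. All control arrays were of the high class and all shLSD1 #1 arrays of the low class. This fit therefore takes the class effect from the shLSD1 #2 arrays alone, as replicate 8 against replicates 7 and 9. The whole class effect rests on that single low array, and the part of the class in the shLSD1 #1 changes was not tested beyond it. With shLSD1 #2 the block gives the same result as leaving out replicate 8, so it is no separate check. It left 9 of the 11 calls, the exceptions being SREBF2 (adjusted p = 0.0719) and SCAP (0.0532). The high class alone holds the same control and shLSD1 #2 arrays, fitted without the shLSD1 #1 arrays. Within the high class (replicates 7 and 9 against the control arrays) 7 of 11 were left: PMVK (0.86, adjusted p = 0.0351), FDPS (−0.61, 0.0397), HSD17B7 (0.94, 0.0214), SREBF1 (−0.85, 0.049), FASN (−0.70, 0.0294), ELOVL6 (0.69, 0.026) and FADS2 (−0.997, 0.018). HMGCS1 (−0.69, 0.0844), MSMO1 (−0.47, 0.0858), SREBF2 (−0.43, 0.117) and SCAP (0.51, 0.0963) did not pass there.

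**Figure D4:**
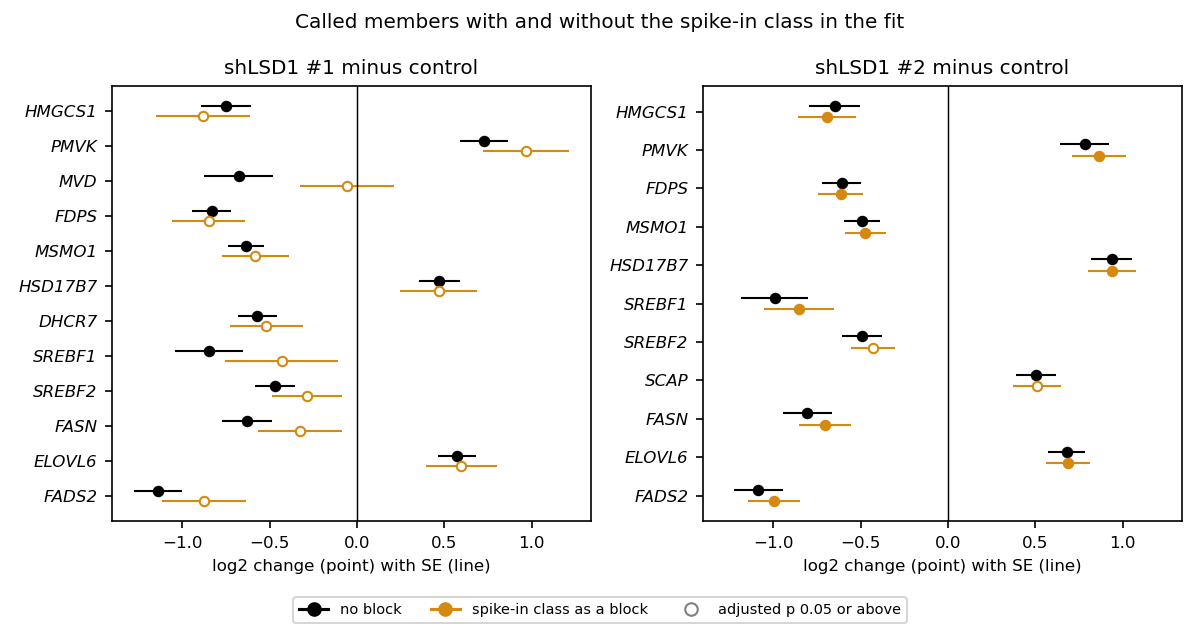
Log2 change (points) with SE (lines) of the genes called with shLSD1 #1 (left) and shLSD1 #2 (right), without a block and with a block for spike-in class; open points have an adjusted p of 0.05 or above. On the left all 12 points are unfilled under the block and keep their sign, and 9 of 11 on the right stay filled.

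Of the neighbouring lipid genes, 72 of 87 listed were measured, and 23 passed with each hairpin (31.9%). This stands beside 15.8% and 13.2% of all clusters, and 28.5% and 24.1% of clusters above the negative controls. The same background shares apply to each neighbouring list. With shLSD1 #1, 6 rose and 17 fell, and with shLSD1 #2, 8 rose and 15 fell. Of the 72 genes, 17 passed with both in the same direction, which held for 10.4% of all clusters and 20% of those above the negative controls. The median changes of the 72 genes were 0.03 and −0.08. In the list of other fatty acid synthesis genes, ACSS2, the cytosolic acetyl-CoA synthetase, fell by −1.35 and −1.31 log2 units (adjusted p = 0.000672 and 0.000824), SLC25A1, the mitochondrial citrate carrier, by −1.23 and −0.84 (0.000227 and 0.00221), and ME1, malic enzyme, by −1.06 and −0.94 (0.000176 and 0.0004). ACSS2 read 9.67, 10.20 and 10.02 in the control, 8.60, 8.67 and 8.56 with shLSD1 #1, and 8.85, 8.37 and 8.72 with shLSD1 #2, with no overlap. Of the 17 measured genes of this list 7 fell and none rose with shLSD1 #1, and 6 fell and 1 rose with shLSD1 #2 (41.2% called with each).

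Downstream of FDPS, both subunits of protein farnesyltransferase fell, FNTB by −1.61 and −1.42 (adjusted p = 0.00109 and 0.00239) and FNTA by −0.92 and −0.71 (0.00275 and 0.0119), while PDSS1, which makes the ubiquinone side chain, rose by 0.67 and 0.61 (0.00214 and 0.00411). Of these 11 isoprenoid and further sterol genes 1 rose and 3 fell with shLSD1 #1, and 2 rose and 2 fell with shLSD1 #2 (36.4% called with each). Of 9 genes of SREBP processing and sterol sensing, MBTPS1 alone rose with shLSD1 #1 and TMEM97 alone with shLSD1 #2 (11.1% each, below the shares over all clusters); both fall outside the naming rule and were named after their values were seen. MBTPS1, the Golgi protease that makes the first cut of SREBPs, differed by 0.42 and 0.33 (adjusted p = 0.048 and 0.122), and its call ended without replicate 1, 2, 3, 4, 6, 7, 8 or 9 (0.052 to 0.15). TMEM97, a sterol-regulated membrane protein, differed by 0.52 and 0.73 (adjusted p = 0.0565 and 0.0155), and its call ended without replicate 1, 8 or 9 (0.052 to 0.0595). In cholesterol uptake, storage and efflux, 2 of 13 genes fell with shLSD1 #1 (15.4%, close to the 15.8% of all clusters) and 4 with shLSD1 #2 (30.8%), among them GRAMD1A, which carries cholesterol from the plasma membrane to the endoplasmic reticulum (−0.74 and −0.89, adjusted p = 0.00201 and 0.000777).

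Of 10 genes of fatty acid activation, triglyceride synthesis and lipid droplets, 4 rose, 1 fell and 5 did not pass with each hairpin (50% called, beside 15.8% and 13.2% of all clusters), and the list medians were 0.08 and 0.22. DGAT2, which makes triglyceride, rose by 0.86 and 0.99 (adjusted p = 0.00241 and 0.00117). ACSL5, an acyl-CoA synthetase, had mean log2 signals of 5.89, 7.36 and 7.23 in control, shLSD1 #1 and shLSD1 #2 (adjusted p = 0.000669 and 0.00119), and PLIN2, a coat protein of lipid droplets, of 4.94, 6.43 and 6.63 (0.00345 and 0.00195). Neither was above the negative controls on any control array, and PLIN2 passed that level on only 1 hairpin array, so no fold is given. GPAM, which also rose with both hairpins, was above that level on no control array either. Its mean log2 signals were 6.82, 7.52 and 7.42 in control, shLSD1 #1 and shLSD1 #2. Of 12 genes of mitochondrial fatty acid oxidation none rose, near the 7.85% and 6.56% of all clusters that were higher with shLSD1 #1 and #2. In this list 4 fell with shLSD1 #1 (33.3% called) and 2 with shLSD1 #2 (16.7% called, near the 13.2% of all clusters called in either direction). ACAA2, the thiolase, fell by −1.74 and −1.35 (adjusted p = 2.63e-05 and 0.000113) and ACADM, the medium-chain dehydrogenase, by −0.97 and −0.78 (0.000273 and 0.00103). With the spike-in block, 7 of the neighbouring genes passed with shLSD1 #1 and 14 with shLSD1 #2, without a share of all clusters to set beside them. The shLSD1 #1 calls of ACSS2 (adjusted p = 0.14), FNTA (0.273), PDSS1 (0.151), GRAMD1A (0.175), DGAT2 (0.0587), SLC25A1 (0.0518) and MBTPS1 (0.381) ended there. The shLSD1 #2 call of TMEM97 ended with the block (0.0528) and within the high class (0.0859), and that of FNTA within the high class (0.0547).

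**Figure D5:**
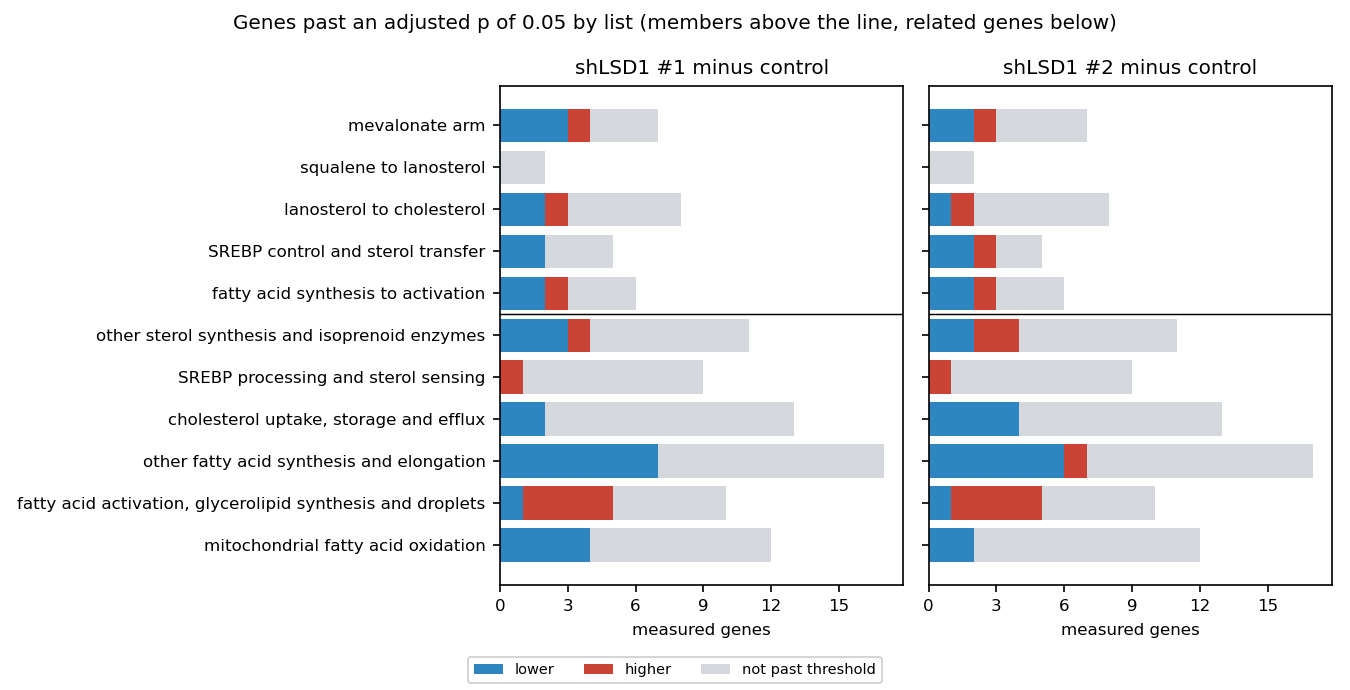
Number of measured genes per list that were lower, higher or not past an adjusted p of 0.05 with shLSD1 #1 (left) and shLSD1 #2 (right); the 28 synthesis genes stand above the line and the 72 neighbouring genes below. In the droplet list 4 of 10 genes were higher with each hairpin, and in the oxidation list none of 12 was. Over all clusters 7.85% were higher with shLSD1 #1 and 6.56% with shLSD1 #2, so none of 12 is near those shares. Of those 4, ACSL5, PLIN2 and GPAM were above the negative controls on no control array.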

How the data were processed

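Biotin-labelled cDNA from 100 ng total RNA of 9 ACC-MESO-1 samples was hybridised to Clariom S arrays, per the labels' protocols. The authors deposited log2 values of 24351 probe sets, made by RMA in Affymetrix Expression Console 1.4, per the submitters' processing notes; the log base was taken as 2 from the range (1.61 to 18.8). The genome build behind the probes is not given in the sources used here. The 2903 control probe sets were set aside, and the remaining 21448 clusters were named through the platform annotation (17709 with a symbol, 3739 without). Scanner files were not used here. The 3 groups were fitted together in limma 3.58.1 (R 4.3.3; lmFit, eBayes), with Benjamini-Hochberg adjustment over all clusters and a threshold of 0.05; the script was tested on simulated data. The number of arrays limits the precision. Values on every array are printed for genes called at 1.5-fold or more and for the SREBP control genes. Further genes near them were chosen for printing after their values were seen. From each neighbouring list, at most 3 genes called with both hairpins are named. MBTPS1 and TMEM97, each called with 1 hairpin only, were added after their values were seen, and GPAM for its low control signal. Members and lists were chosen with earlier results of these data known. Spike-in classes are arrays split at the largest gap in mean hybridization spike-in signal. The alternatives tried were 3 further normalizations, a filter on low signal, weights per array, another variance prior, fits without the third group, the median of a gene's clusters, the spike-in classes, and leaving out each array.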

Additional observations from a re-analysis of the deposited data

How the results depend on the processing

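No paired analysis was possible because the replicate numbers run from 1 to 9 across the groups, so that no number is shared. Apart from the spike-in alternatives, 17 alternatives were run on each contrast with the control. Of the 12 calls with shLSD1 #1, 7 passed in every one of these (HMGCS1, PMVK, FDPS, MSMO1, DHCR7, ELOVL6 and FADS2), and of the 11 with shLSD1 #2, 8 did (PMVK, FDPS, MSMO1, HSD17B7, SREBF1, FASN, ELOVL6 and FADS2).

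Without the third of clusters of lowest mean signal, 19 of the 28 genes were called with shLSD1 #1 and 14 with shLSD1 #2. Fewer clusters entered the adjustment, and the median standard error of the 12 shLSD1 #1 calls was 0.119 in place of 0.128. With the other variance prior 18 were called with shLSD1 #1 and 15 with shLSD1 #2, and the median standard error of those 12 calls was 0.107. With a block for spike-in class, 0 were called with shLSD1 #1, 0 with both hairpins and 5 with the hairpins pooled; the median change with shLSD1 #1 was −0.11; and 7 and 14 neighbouring genes were called with shLSD1 #1 and #2. On arrays of high spike-in signal alone, 7 synthesis genes and 12 neighbouring genes were called with shLSD1 #2. Leaving out 1 array at a time gave 8 to 12 called genes with shLSD1 #1, 9 to 12 with shLSD1 #2, 11 to 14 pooled, 6 to 9 with both and 0 to 0 between hairpins, medians of −0.27 to −0.23 and −0.16 to −0.10, and 17 to 24 and 14 to 21 neighbouring genes. Without replicate 2 the genes called with both hairpins numbered 6; without replicate 1, 7 or 8 the neighbouring genes called with shLSD1 #2 numbered 15, 15 and 14.

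The sign turned only in genes that were not called, and the cause was not tested. ACLY became 0.0070 with shLSD1 #1 and 0.029 with shLSD1 #2 after a second quantile normalization. With shLSD1 #2 it became 0.0030 with the block, on high arrays alone and without replicate 8, and it ran from −0.023 to 0.0080 (without replicate 1) over the arrays left out. ACAT2 with shLSD1 #1 became −0.0076 after median subtraction, and −0.068 to 0.054 over the arrays left out (−0.022 without replicate 1, −0.068 without replicate 4). ACACA with shLSD1 #2 became −0.015 under cyclic loess, −0.053 without replicate 1 and −0.11 without replicate 7, with 0.076 as its highest value over the arrays left out. MVK, at −0.25 with shLSD1 #1, became 0.053 under the block, and −0.024 and −0.11 with shLSD1 #2 without replicates 3 and 7 (highest 0.11, without replicate 8). EBP with shLSD1 #2 ran from −0.077 to 0.0040, the latter without replicate 7. Signal over background limits TM7SF2 alone among the 28 genes, since only 1 of its control arrays exceeded the negative controls.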
